A study of Mus musculus with 4 samples.

Results

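The genes described are 9 of the transforming growth factor beta (TGF-beta) and bone morphogenetic protein (BMP) pathways: the ligand genes Tgfb2, Tgfb3 and Bmp4, the receptor genes Tgfbr2 and Tgfbr3, and the target genes Ccn2, Acta2, Id1 and Id3. They were chosen by the gene symbol in the platform annotation, which gave 12 probes for these 9 genes out of 12484 named probes for 8980 genes. Acta2 had 3 probes, Tgfbr2 had 2 and every other gene had 1. The cells were cortical neural precursors of ICR mice, taken on embryonic day 12 and cultured. While the cells proliferated in basic fibroblast growth factor (bFGF) and epidermal growth factor (EGF), they were exposed for 2 hours to a retrovirus. Both growth factors were then withdrawn for 2 days before RNA was taken, in every group. The Control group received the empty vector pCL, the Nurr1 group a virus carrying Nurr1, the Foxa2 group a virus carrying Foxa2, and the Nurr1+Foxa2 group both factors. Nurr1 belongs to the orphan nuclear receptors and Foxa2 to the forkhead factors, and the series asks how they act together on the induction of dopamine neurons. Each group was measured on 1 bead array, so no difference below has a replicate check, no test between groups was possible, and the number of arrays limits the precision. The retroviral vectors enter dividing cells, and the share of cells that took up each virus is not known here.

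TGF-beta ligands bind a complex of type I and type II receptor kinases, which phosphorylate the transcription factors SMAD2 and SMAD3. BMP ligands signal in the same manner through SMAD1, SMAD5 and SMAD9. In the embryonic forebrain BMPs are made at the dorsal midline and induce the Id genes, whose proteins block the neurogenic basic helix-loop-helix factors. TGF-beta is known to promote the survival and induction of midbrain dopamine neurons, and in many cell types to induce Ccn2 and Acta2.

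The median deposited signal of the 4 arrays ran from 134 to 149, and 42.7% to 44.6% of probes were detected, which means a detection p-value under 0.01. The lowest detected signal lay between 166 and 179. The probe of Nr4a2, the gene that encodes Nurr1, had a signal of 167 with the empty virus, 1669 with Nurr1, 216 with Foxa2 and 1620.4 with both. It was high on the 2 arrays labelled with Nurr1. No named probe represents Foxa2. Of the 9 genes, 5 were detected on all 4 arrays by the probe that stands for them (Tgfb2, Tgfbr2, Ccn2, Id1 and Id3), and all 9 on at least 1 array. Signals are given as deposited. A log2 difference comes from background-corrected and normalized values of the brightest probe of a gene. It is written "at least" where 1 of the arrays did not detect the probe, whose value was then raised to the lowest detected level. The spread of a log2 difference between probes of 1 gene was 0.18 to 0.24 (pooled SD over 1925 to 2008 genes with several detected probes), and this is the only error available. It does not hold the variation from culture to culture or from one transduction to another. In RNA from whole cultures, fewer cells that express a gene and less RNA per cell cannot be told apart.

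The promoters of 5 of the 9 genes are held in the RefSeq table of mouse build GRCm38.p6, and they are shown so that the letters upstream of ligand, receptor and target genes can be compared. Each line gives the 250 bases before the start of an annotated transcript, on the strand of the gene. Capitals mark the matches to the motifs searched. The Tgfb2 window lies wholly inside the annotated span of its gene and the Acta2 window with 212 of its 250 bases, and which start these cells used is not known here. The Tgfb2 window is chr1:186705990-186706239 (minus strand), the Tgfbr2 window chr9:116175364-116175613 (minus), the Acta2 window chr19:34255374-34255623 (minus), the Bmp4 window chr14:46390670-46390919 (minus) and the Id3 window chr4:136143572-136143821 (plus).
Tgfb2: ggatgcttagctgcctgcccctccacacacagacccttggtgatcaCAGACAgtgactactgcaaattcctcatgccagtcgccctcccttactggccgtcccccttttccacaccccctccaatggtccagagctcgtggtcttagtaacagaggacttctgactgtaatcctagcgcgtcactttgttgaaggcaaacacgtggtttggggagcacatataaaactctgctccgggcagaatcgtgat
Tgfbr2: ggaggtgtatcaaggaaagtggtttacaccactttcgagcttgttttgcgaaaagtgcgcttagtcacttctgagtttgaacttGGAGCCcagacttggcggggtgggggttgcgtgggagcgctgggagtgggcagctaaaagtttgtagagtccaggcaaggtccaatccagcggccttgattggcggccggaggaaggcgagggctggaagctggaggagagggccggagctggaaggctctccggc
Acta2: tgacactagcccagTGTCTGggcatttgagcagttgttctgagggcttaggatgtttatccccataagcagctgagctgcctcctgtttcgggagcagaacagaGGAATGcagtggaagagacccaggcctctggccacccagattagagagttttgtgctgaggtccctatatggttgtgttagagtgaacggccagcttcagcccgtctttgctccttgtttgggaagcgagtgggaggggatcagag
Bmp4: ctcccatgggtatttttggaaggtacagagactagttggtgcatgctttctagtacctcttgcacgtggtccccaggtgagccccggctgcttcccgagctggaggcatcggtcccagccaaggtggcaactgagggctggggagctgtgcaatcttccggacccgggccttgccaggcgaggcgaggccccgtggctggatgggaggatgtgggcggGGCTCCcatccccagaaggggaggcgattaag
Id3: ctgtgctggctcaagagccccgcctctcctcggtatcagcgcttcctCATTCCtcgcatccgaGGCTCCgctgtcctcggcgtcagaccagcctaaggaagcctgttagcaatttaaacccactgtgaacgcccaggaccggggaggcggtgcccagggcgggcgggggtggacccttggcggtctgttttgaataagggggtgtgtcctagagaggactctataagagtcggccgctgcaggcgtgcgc

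Motifs were searched on both strands, and none overlapped another. The SMAD element CAGACA was found in the Tgfb2 window, 204 bases before the start, and in the Acta2 window, 236 bases before it. It occurs in 17.1% of all 32851 windows of this length. GGAGCC, a form of the BMP-responsive SMAD element, was found in the windows of Tgfbr2, Bmp4 and Id3 (26% of all windows), and the other form, GGCGCC, in none of the 5 windows (9.59% of all). GGAATG, the motif of TEAD factors, was found in the windows of Acta2 and Id3 (12.6% of all). No window of the 5 held the Nurr1 half-site AAGGTCA (4.08% of all), the FOXA letters TGTTTAC or TATTTAC (5.76% of all for either) or a strict match to the CArG box, the motif of serum response factor (1.47% of all). With 1 base of the A and T core replaced, a search added after the strict one had been seen, the CArG box matched the Acta2 window at ccctatatgg and ccttgtttgg, 84 and 34 bases before the start. These are the CArG elements known from the Acta2 promoter. The looser pattern also matched the Tgfbr2 window at ccttgattgg, 73 bases before the start, and occurs in 7.24% of all windows. The searches describe letters within these windows and nothing about binding.

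Among the ligands, Tgfb2 was higher on both arrays with Foxa2 and near Control with Nurr1 alone. Tgfb2 (chromosome 1, 186622787 to 186709697 in GRCm38.p6) encodes a secreted TGF-beta, and its promoter window is the first of those shown. Its signal was 269.9 with the empty virus, 303 with Nurr1, 1058 with Foxa2 and 1382 with both factors. The 2 arrays with Foxa2 were high and the 2 without it low. The log2 difference from Control was 2.05 with Foxa2 (4.13-fold) and 2.49 with both factors (5.62-fold). With Nurr1 it was 0.03, within the spread between probes. Both factors together lay 0.44 above Foxa2 alone on the log2 scale, which exceeds that spread (0.20).

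Tgfb3 (chromosome 12, 86056743 to 86079041), which encodes another secreted TGF-beta, was detected on the arrays with Foxa2 and on no other. Its signal was 119 with the empty virus, 149 with Nurr1, 465 with Foxa2 and 329 with both factors. The first 2 of these values were below the detection threshold and have no order. Tgfb3 was at least 3.68-fold higher than Control with Foxa2 (log2 1.88) and at least 2.28-fold higher with both factors (log2 1.19). Unlike Tgfb2, it was lower with both factors than with Foxa2 alone, by 1.61-fold (log2 -0.69). The bound with both factors fell short of 2-fold without background correction (0.74), with the authors' values (0.76) and with a larger offset (0.96). With Foxa2 the difference ranged from 1.27 without background correction to 3.03 without a detection floor.

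Bmp4 was the member that was lower with Nurr1. Bmp4 (chromosome 14, 46383525 to 46390669) encodes a BMP of the dorsal midline of the forebrain. Its signal was 598 with the empty virus, 143 with Nurr1, 798 with Foxa2 and 373 with both factors. The Nurr1 array did not detect it, and the array with both factors lay between Nurr1 and Control. Bmp4 was at least 6.70-fold lower with Nurr1 than with the empty virus (log2 -2.74). With Foxa2 it was 1.16-fold higher (log2 0.21, with a spread between probes of 0.20). With both factors it was 2.17-fold lower than Control (log2 -1.12), 2.51-fold lower than with Foxa2 alone and at least 3.09-fold higher than with Nurr1 alone. The difference between both factors and Control was -0.91 with uncorrected background and -0.90 with the authors' values, short of 2-fold, and that between Nurr1 and Control was -1.94 under each of these.

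Of the receptors, Tgfbr2 followed Foxa2 and Tgfbr3 was detected only with both factors. Tgfbr2 (chromosome 9, 116087695 to 116175363) encodes the type II receptor that binds TGF-beta and phosphorylates the type I receptor. The signal of its brighter probe was 196 with the empty virus, 204 with Nurr1, 1667 with Foxa2 and 1791 with both factors. The arrays fell into 2 levels by the presence of Foxa2, and within each level the difference was smaller than the spread between probes. Tgfbr2 was 11.4-fold higher than Control with Foxa2 (log2 3.51), 12.5-fold higher with both factors (3.64) and 13.0-fold higher with both than with Nurr1 alone (3.70). The Control signal stood near the lowest detected one (166). The dimmer probe had signals of 94.5, 103, 194 and 186 in the same order of arrays, detected on the 2 arrays with Foxa2. Its difference from Control with Foxa2 was at least 0.05 on the log2 scale. With both factors none was given, since the raised Control value lay above the detected one. The mean over both probes was 1.78 with Foxa2 and 1.82 with both factors. Such means take a bound at its value and a difference that was not given as 0. For the brighter probe with uncorrected background, the folds against Control were 7.30 with Foxa2 and 7.94 with both factors, and 8.14 for both against Nurr1.

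Tgfbr3 (chromosome 5, 107106567 to 107289629) encodes betaglycan, a co-receptor that presents TGF-beta, above all TGF-beta2, to the type II receptor. Its signal was 141 with the empty virus, 154 with Nurr1, 142 with Foxa2 and 374 with both factors. Only the last value passed the detection threshold, and the other 3 have no order. With both factors Tgfbr3 was at least 2.76-fold higher than Control (log2 1.46), at least 3.10-fold higher than with Nurr1 (1.63) and at least 3.24-fold higher than with Foxa2 (1.70). Against Control the bound was 0.95 with uncorrected background and 0.96 with the authors' values, short of 2-fold. Against each single factor it stayed above 2-fold under both.

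**Figure D1:**
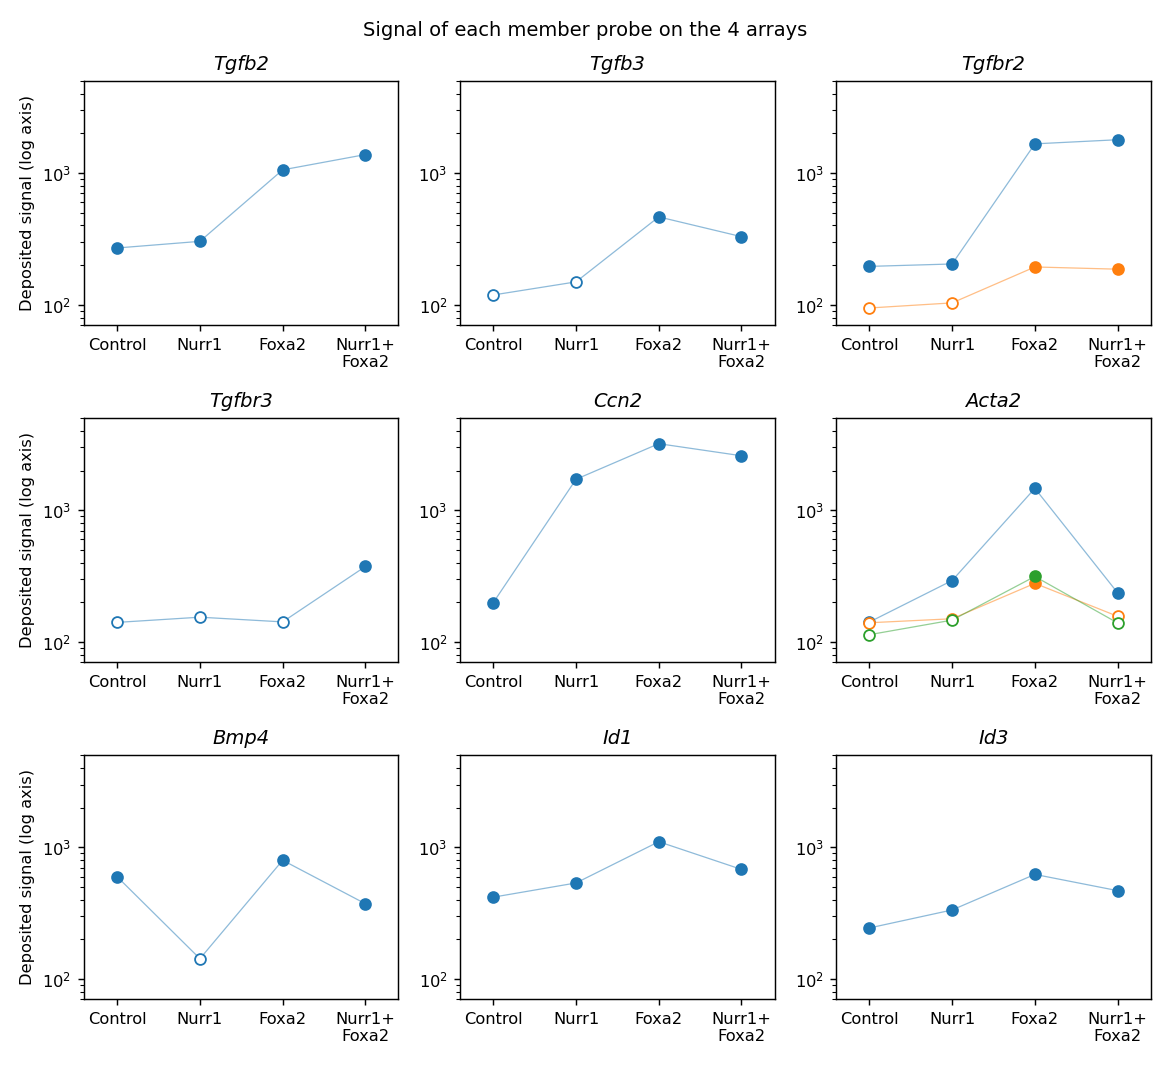
Deposited signal (log axis) of each of the 12 probes on the 4 arrays, with 1 panel per gene and 1 colour per probe. Filled points were detected (detection p-value under 0.01), open points were not, and lines join the values of a probe. Tgfb2 and Tgfbr2 are high on the 2 arrays with Foxa2, Acta2 on the Foxa2 array, and Bmp4 is lowest on the Nurr1 array.

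Among the targets, Ccn2 was higher with either factor. Ccn2 (chromosome 10, 24595442 to 24598683) encodes connective tissue growth factor, a secreted matricellular protein and a textbook target of TGF-beta and of the YAP and TEAD factors. Its signal was 199 with the empty virus, 1717 with Nurr1, 3201 with Foxa2 and 2591 with both factors. Control stood alone at the low end, near the lowest detected signal of that array (166). Against Control, Ccn2 was 12.4-fold higher with Nurr1 (log2 3.63), 21.8-fold higher with Foxa2 (4.45) and 17.8-fold higher with both (4.15). With Foxa2, 3 of 7783 named genes, Ccn2 among them, had a value or a bound as far above Control. When the background was not corrected, the folds against Control were 7.97 with Nurr1, 13.7 with Foxa2 and 11.3 with both. The array with both factors lay 0.52 above Nurr1 and 0.29 below Foxa2 on the log2 scale, steps larger than the spread between probes (0.20) and under 2-fold.

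Acta2 was highest with Foxa2 alone and was not high with both factors. Acta2 (chromosome 19, 34240336 to 34255585) encodes smooth muscle actin, an actin of contractile cells. The signal of its brightest probe was 141 with the empty virus, which was not detected, 292 with Nurr1, 1465 with Foxa2 and 236 with both factors. The other probes gave 139.7, 149.8, 278 and 156, and 113, 146, 314 and 139, in the same order of arrays, and both were detected on the Foxa2 array alone. All 3 probes thus had their highest signal with Foxa2 alone. Acta2 was at least 13.5-fold higher than Control with Foxa2 (log2 3.76). The other probes gave bounds of 0.89 and 1.15. With both factors it was 9.74-fold lower than with Foxa2 alone (log2 -3.28), and the other probes gave bounds of -1.10 and -1.36. Only 1 other named gene of 8033 had a value or a bound as low in that comparison. With uncorrected background these folds were 7.61 for Foxa2 against Control and 6.32 for Foxa2 over both factors, and as a mean over the 3 probes 3.81 and 3.77. With Nurr1 alone the bound against Control was 1.16 (2.23-fold). It was 0.72 without background correction, 0.73 with the authors' values and 0.93 with a larger offset. As a mean over probes it was 0.39, in which the other probes, detected on neither array, counted as 0. With both factors the bound against Control was 0.48, or 1.01 without a floor. Actin genes are near-identical in their coding parts. The positions of the probes are not known here, so hybridisation of other actin transcripts was not tested.

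Id1 and Id3 had nearly the same profile. Id1 (chromosome 2, 152736251 to 152737410) and Id3 (chromosome 4, 136143822 to 136145392) encode inhibitors of basic helix-loop-helix factors and are direct targets of BMP signalling. The Id1 signal was 418 with the empty virus, 536 with Nurr1, 1103 with Foxa2 and 679.8 with both factors. The Id3 signal was 244, 335, 623 and 469 in the same order. Both genes were lowest with the empty virus and highest with Foxa2 alone, and every step in that order exceeded the spread between probes. The smaller steps were common among all named genes. For Nurr1 against Control, 1369 of 7808 genes were at least as high as Id1 and 957 as Id3. For both factors against Nurr1, 1582 of 7950 were at least as high as Id1 and 1014 as Id3. With Foxa2, Id1 was 2.49-fold (log2 1.32) and Id3 2.62-fold (1.39) higher than Control. With Nurr1 the differences were 0.29 and 0.44, and with both factors 0.56 and 0.89, all under 2-fold. Both factors together were lower than Foxa2 alone, by 1.69-fold for Id1 and 1.42-fold for Id3. Bmp4, a ligand that induces Id genes elsewhere, was not detected on the Nurr1 array. On that array the signals of Id1 and Id3 were above those of the Control array. Bmp7, another BMP ligand gene, was detected on every array. The part of either ligand in the Id1 and Id3 values was not tested.

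**Figure D2:**
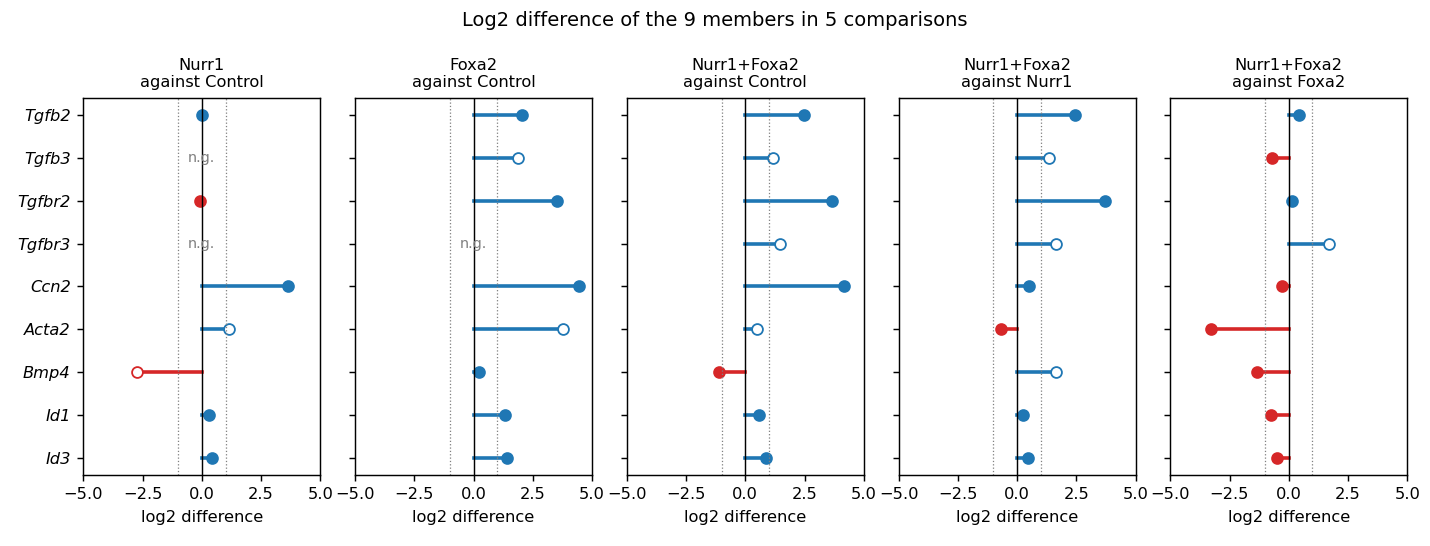
Log2 difference of each gene in 5 comparisons, from the probe that stands for the gene. Filled points are measured on both arrays, open points are bounds, n.g. means that neither array detected the gene, and dotted lines mark 2-fold. With Foxa2 against Control 7 of the 9 genes lie beyond 2-fold to the right, and Acta2 lies at -3.28 for both factors against Foxa2.

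Counted over the members, Foxa2 alone went with the largest number of higher values. Against Control, 7 of 9 were at least 2-fold higher with Foxa2 (Tgfb2, Tgfb3, Tgfbr2, Ccn2, Acta2, Id1 and Id3), where 3.52% of 7923 named genes were, and none was lower (1.48% of named genes). The median log2 difference of the 9 was 1.88, with a difference that could not be given counted as 0, beside -0.03 for all named genes that either array detected. With Nurr1, 2 of 9 were higher (Ccn2 and Acta2, against 4.37% of 7915 named genes) and 1 lower (Bmp4, against 2.79%), with a median of 0.03 against -0.03. In that comparison 7 of the 9 were detected on either array. Tgfb3 and Tgfbr3 were not and entered the median as 0, while the shares and median of all named genes leave such genes out. With both factors, 5 of 9 were higher than Control (Tgfb2, Tgfb3, Tgfbr2, Tgfbr3 and Ccn2, against 7.06% of 8019) and 1 lower (Bmp4, against 4.75%), with a median of 1.19 against -0.08. These 3 comparisons share the Control array, so their values are not independent. The members were chosen with earlier results of these data known. Counts above the shares of all named genes, here and against each single factor, are therefore no test of the set. When the background was not corrected, or the authors' values were used, the count with both factors was 3 higher (Tgfb2, Tgfbr2 and Ccn2) and none lower.

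When both factors were set against each single one, the members separated. Against Nurr1 alone, 5 of 9 were at least 2-fold higher with both (Tgfb2, Tgfb3, Tgfbr2, Tgfbr3 and Bmp4), where 4.41% of 7977 named genes were, and none was lower (1.73%). The Tgfb3 bound in that comparison was 0.83 with uncorrected background and 0.84 with the authors' values. Against Foxa2 alone, 1 was higher (Tgfbr3, against 4.81% of 8045 named genes) and 2 were lower (Acta2 and Bmp4, against 3.85%). The median log2 difference of the members was 1.36 against Nurr1 and -0.50 against Foxa2, beside -0.08 and -0.05 for all named genes.

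**Figure D3:**
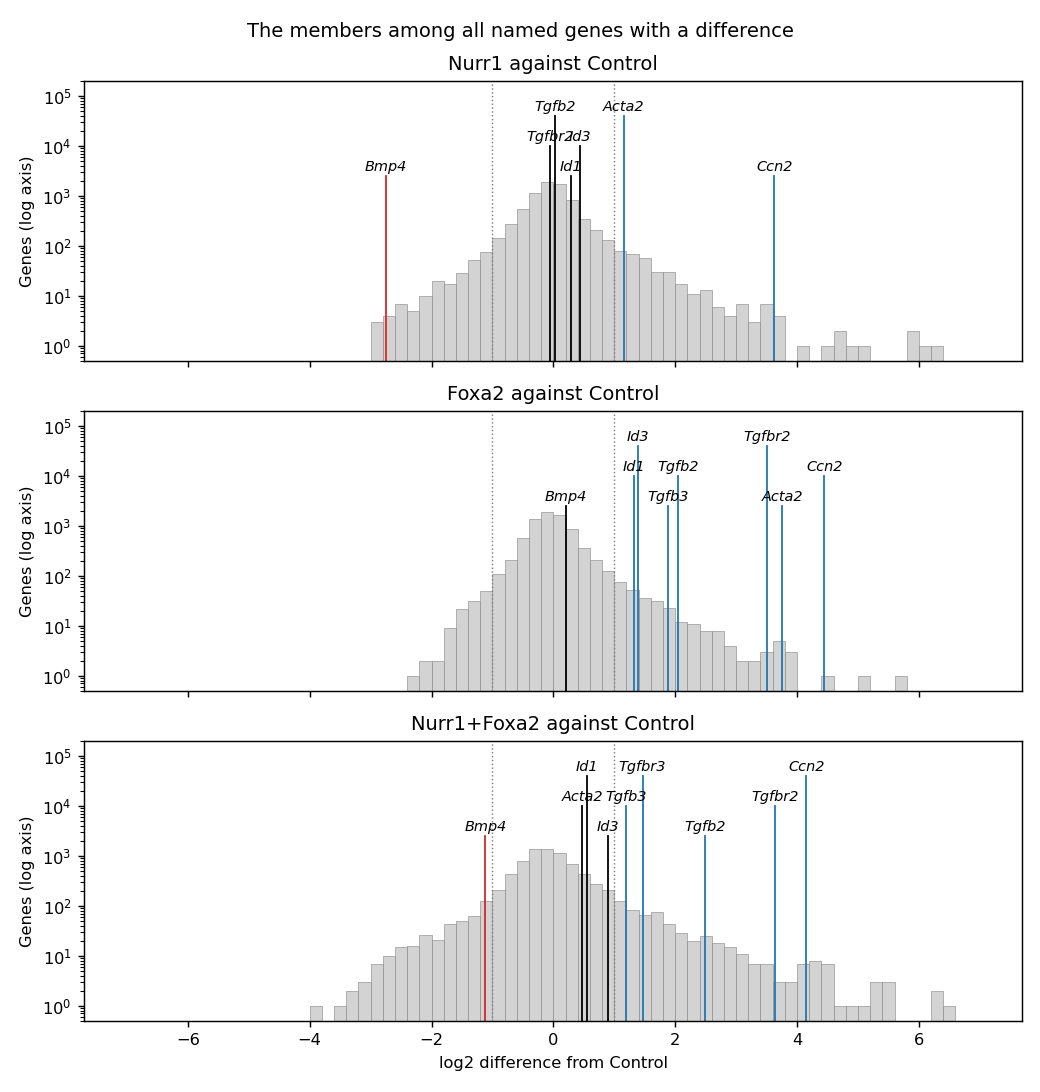
Histogram (log axis) of the log2 differences from Control over all named genes, with 1 panel per comparison; vertical lines mark the members and dotted lines 2-fold. Coloured lines are members beyond 2-fold. Ccn2 stands far to the right in all 3 panels, at 3.63, 4.45 and 4.15, and Bmp4 far to the left with Nurr1.

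For the 5 genes detected on all arrays, the difference with both factors can be set beside the sum of the 2 single differences on the log2 scale. Ccn2 was at 4.15 with both factors where the single differences add to 8.08, a departure of -3.92, and 2 of 7127 genes, Ccn2 among them, departed as far in that direction. Id1 departed by -1.05 (0.56 against a sum of 1.60) and Id3 by -0.94 (0.89 against 1.83). Of the 7127 genes, 198 were as low as Id1 and 242 as low as Id3, and 3.06% were at -1 or below. Tgfb2 was 0.42 above its sum and Tgfbr2 0.19 above it, inside the range from -0.79 to 0.77 that runs from the 5th to the 95th percentile of those genes. The departure takes 1 array from each group and was not tested. It was computed in the main processing only, and the Ccn2 and Tgfbr2 values rest on Control signals near the lowest detected one.

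**Figure D4:**
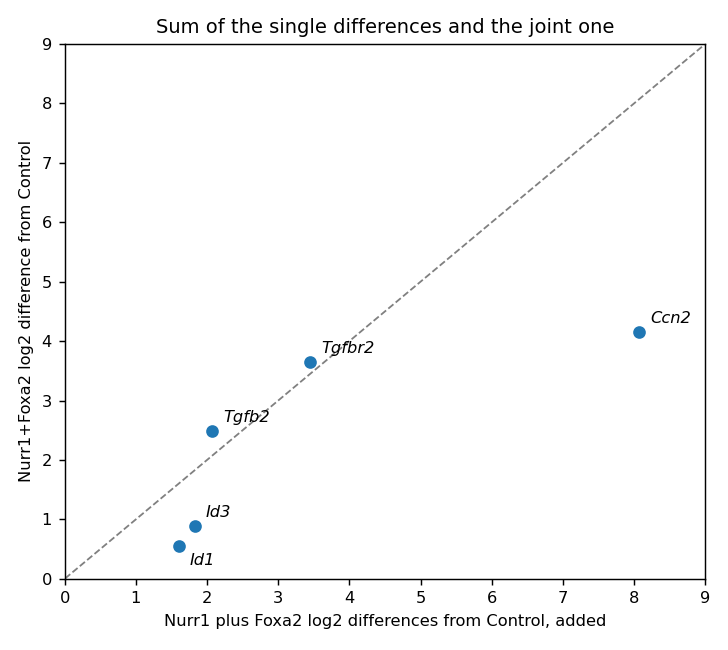
Log2 difference from Control with both factors (vertical) against the sum of the differences with Nurr1 and with Foxa2 (horizontal), for the 5 genes detected on all 4 arrays; the dashed line marks equality. Tgfb2 and Tgfbr2 lie near the line, Id1 and Id3 below it, and Ccn2 far below it, at 4.15 for a sum of 8.08.

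Likeness of profiles was measured as the Euclidean distance between centred normalized log2 values over the 4 arrays. It is given for the 5 members and the 7126 other genes detected on all arrays, so that no undetected value enters, a limit set after the data were seen. Of the 10 pairs of these members the closest was Id1 with Id3 (0.25), followed by Tgfb2 with Tgfbr2 (1.37). The nearest profile to Tgfb2 was that of the growth hormone receptor gene Ghr (0.28), and the nearest to Tgfbr2 that of Ero1b (0.59), an oxidase gene of the endoplasmic reticulum. Ccn2 was nearest to Slit2, an axon guidance ligand gene (1.05). Id1 was nearest to Rfx2 (0.17), a transcription factor gene, and Id3 to Plec (0.17), which encodes the cytoskeletal linker plectin. With 4 arrays these distances describe the arrays and no more.

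Other genes of the pathways were taken from 9 lists of ligands, receptors, SMADs, inhibitors and targets, 100 genes in all, of which 52 had a named probe. These lists leave out the 9 members, and they too were chosen with earlier results of these data known. With Foxa2, 6 were at least 2-fold higher than Control and 1 lower among 41 detected on either array, where 3.52% and 1.48% of all named genes were. Their median was 0.21 beside -0.03 for all named genes. With Nurr1, 2 were higher and 5 lower among 42 (4.37% and 2.79% of all), with a median of -0.06 beside -0.03. With both factors, 7 were higher and 5 lower among 45 (7.06% and 4.75% of all), with a median of 0.02 beside -0.08.

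The other ligands and receptors gave few differences of 2-fold. The measured genes of the list named for TGF-beta and activin ligands were the inhibin subunit genes Inhbb and Inha. These and the 2 detected BMP and GDF ligand genes (Bmp7 and Gdf10) were within 2-fold of Control on every array. Rgmb, which encodes a BMP co-receptor, had signals of 173, 311, 227 and 732 on the Control, Nurr1, Foxa2 and Nurr1+Foxa2 arrays. It was 5.91-fold higher than Control with both factors and 2.25-fold higher with Nurr1, from a Control signal just above the lowest detected. Acvr1, a type I receptor gene for BMPs, was 2.14-fold higher with both factors. Smad3 was 2.19-fold higher with Foxa2, while Smad2, named here after its value was seen, was at 0.05 on the log2 scale. The SMAD list had 9 detected genes and no gene lower by 2-fold against Control in any group.

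The list of extracellular inhibitors and latency proteins, with 13 genes the largest of those measured, held genes that were higher and genes that were lower. Fstl1, a follistatin-like secreted glycoprotein gene, had signals of 684 with the empty virus, 2444 with Nurr1, 1763 with Foxa2 and 6407 with both factors. It was above Control with each virus, by 3.63-fold with Nurr1, 2.37-fold with Foxa2 and 8.99-fold with both. Fst, which encodes follistatin, a binder of activins, was detected only with Foxa2 (signal 589, at least 4.85-fold above Control) and with both factors (225). Nbl1, a BMP antagonist gene of the DAN family, had signals of 652, 978, 2710 and 813 in the same order of arrays. It was 3.95-fold higher than Control with Foxa2 and 3.63-fold lower with both factors than with Foxa2 alone, and Fst was 3.78-fold lower in that comparison. Acta2 was likewise high with Foxa2 alone and lower with both. Chrd, which encodes the BMP antagonist chordin, was 3.72-fold higher than Control with both factors. Ltbp1 and Ltbp3, of latent TGF-beta binding proteins, and Bmper, of a BMP-binding protein, were lower than Control with Nurr1 (2.07-fold, 2.48-fold and 2.15-fold) and with both factors (3.20-fold, 2.05-fold and 2.68-fold).

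Other target genes did not all follow the members. Of 6 BMP target genes listed, Id2 and Id4 were detected and neither reached 2-fold against Control. Id4 was at 0.80 on the log2 scale with Foxa2 and Id2 at -0.22, beside 1.32 for Id1 and 1.39 for Id3. Of 14 TGF-beta target genes 5 had a probe, and Itgb5, which encodes an integrin subunit, was 2.06-fold lower with Nurr1, 2.36-fold higher with Foxa2 and 3.23-fold higher with both. Timp1, a metalloproteinase inhibitor gene, was at least 2.45-fold higher with both. The rest of this list, named here after its values were seen, did not reach 2-fold above Control in any group. Ccn1 was at -0.17 on the log2 scale with Nurr1, -0.52 with Foxa2 and 0.71 with both. Pmepa1 was detected on the Control array alone and Col1a1 on no array. Over the 3 genes of the list detected with Foxa2 or in Control, the median log2 difference was -0.25. Of 6 YAP and TEAD target genes 3 were detected, and none was 2-fold higher than Control in any group. Axl, a receptor tyrosine kinase gene, was 3.59-fold lower with Nurr1 and 3.08-fold lower with both, and Amotl2, an angiomotin family gene, was 2.40-fold lower with Foxa2 and 4.44-fold lower with both. Of the smooth muscle and actin cytoskeleton genes, 4 of 12 had a probe. Smtn, which encodes smoothelin of contractile smooth muscle, was at least 2.77-fold higher with Foxa2 and 2.23-fold lower with both factors than with Foxa2 alone. Tpm1 and Vcl were within 2-fold of Control on every array. Cald1 was not detected with the empty virus or with Nurr1, and was above Control by at least 0.35 with Foxa2 and at least 0.46 with both factors on the log2 scale.

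**Figure D5:**
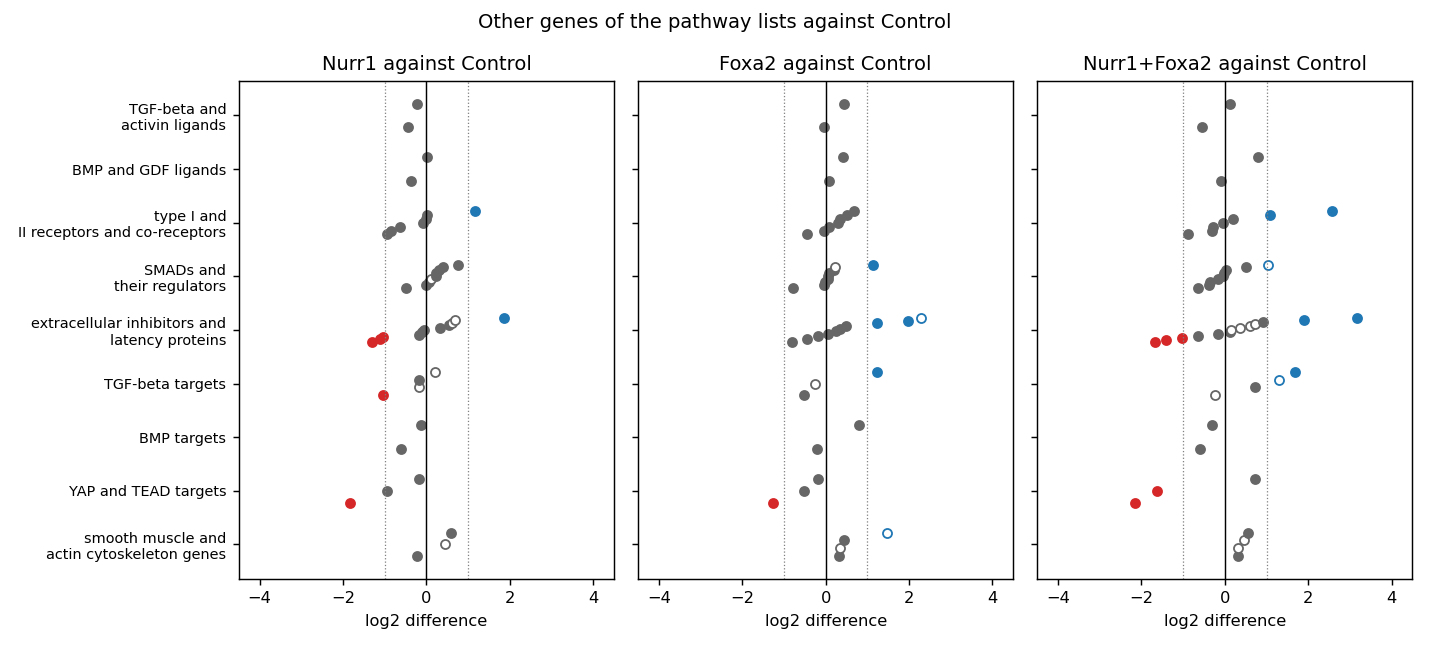
Log2 differences from Control of the other genes of the 9 pathway lists, with 1 panel per comparison and 1 row per list; filled points are measured, open points are bounds, blue and red mark 2-fold higher and lower, and dotted lines mark 2-fold. The row of extracellular inhibitors and latency proteins holds genes on both sides, with Fstl1 at 3.17 with both factors.

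Markers of other cells were set beside the members, since Acta2 and Ccn2 are also expressed by vascular and connective tissue cells. All 5 precursor markers with a probe (Nes, Sox2, Fabp7, Hes5 and Slc1a3) were detected on every array. Their summed background-corrected signal was 71189.6 with the empty virus, 34889.7 with Nurr1, 62571 with Foxa2 and 25182 with both factors. Most of it came from Slc1a3, which gave 58533, 27443, 51580.2 and 20550.1. Of 8 markers of pericytes and vascular smooth muscle 2 had a probe (Cspg4 and Notch3), with sums of 885, 438, 691 and 337 in the same order. Between the Control and Foxa2 arrays Cspg4, which oligodendrocyte precursors also express, went from 366 to 167 and Notch3 from 519 to 524. The part of such cells in the Acta2 values was not tested. Of 8 fibroblast and meningeal markers 6 had a probe. Col1a1 and Lum were detected on no array, and Dcn and Foxc1 were detected with Nurr1 and with both factors but not on the Control or Foxa2 array. Foxc1 had signals of 118, 234, 125 and 471, so it was highest on the array with both factors, as Tgfbr3 was. Twist1, detected on every array, had signals of 200, 206, 286 and 215 and was highest with Foxa2 alone. The part of these markers in the Tgfbr3 result was not tested. The sums of this list were 8951, 7399.9, 5526 and 3848, of which Pdgfra, a gene that oligodendrocyte precursors also express, gave 8746, 6891, 5263 and 3219.9. Kdr of endothelial cells and Aif1 of microglia, the only named probes of their lists, were detected on no array. Astrocyte marker sums were 16788, 7228, 11029 and 4442, of which Aldoc gave 13758, 5978, 8112 and 3317. Between the Control and Foxa2 arrays Aqp4 went from 1198 to 1073 and Aldh1l1 from 1832 to 1844. Neuron marker sums were 12306, 13012, 12864 and 9350.5, and their genes did not move together. Stmn2 gave 571, 1515, 818 and 1212, and Rbfox3 gave 1944, 685, 1850 and 568. Precursor and astrocyte markers were lower than Control on both arrays with Nurr1, as Bmp4 was. So were Rbfox3 and Notch3, the latter at 519, 196, 524 and 226. Some precursor and astrocyte markers were also lower with Foxa2 alone, among them Aldoc and Fabp7 (760, 409, 375 and 150). The part of all these markers in the lower Bmp4 values was not tested.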

How the data were processed

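Per the labels' protocols, biotinylated complementary RNA of 4 cultures was hybridised to single-colour Illumina bead arrays, with 1 array per group. The deposited scanner table, per the file headers, holds a mean bead signal (an intensity on a linear scale, neither background-subtracted nor normalized) and a detection p-value for each of 25697 probes. The authors' deposited value table holds log2 signals of 13246 probes. Each of its columns has a median of 9.04, and its normalization is not stated. The software behind both tables is not given in the sources used here. Symbols came from the platform annotation.

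Signals were background-corrected, offset by 16, quantile normalized and put on the log2 scale with neqc of limma 3.58.1 (R 4.3.3). This step was tested on simulated data, in which only probes well above background were changed. That test does not cover signals near the detection threshold, where several members lie. Later steps used Python 3.11.15 with pandas 2.3.3, numpy 2.4.6 and matplotlib 3.10.9. The probe with the highest mean stood for a gene. A probe was detected at a detection p-value under 0.01, and an undetected value was raised to the lowest detected one. No difference was given where neither array detected a probe, or where the raised value lay above the detected one. In a mean over probes, a bound counted at its value and a difference not given as 0. A gene was called at 2-fold (log2 of 1). The rule for names took all 9 members, the largest differences from Control (up to 6 per direction) among other pathway genes, and the 3 nearest profiles per member, here kept to members and genes detected on all arrays. Genes named in comparisons with a single factor were picked among these after their values were seen. The members and lists were chosen with earlier results of these data known. Alternatives changed the background correction, normalization, offset, detection threshold, floor, probe rule and fold threshold. Protein sequences were not used here.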

Additional observations from a re-analysis of the deposited data

Results flagged for a closer look

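For 4 genes a factor went with a higher value in one setting and a lower value in the other. Each setting is 1 array against 1 array, so the difference was not tested. Nurr1 against Control gave a log2 difference of 3.63 for Ccn2, at least 1.16 for Acta2, 0.29 for Id1 and 0.44 for Id3. Nurr1 added to Foxa2 gave -0.29 for Ccn2, -3.28 for Acta2, -0.76 for Id1 and -0.50 for Id3. Foxa2 against Control gave at least 3.76 for Acta2, while Foxa2 added to Nurr1 gave -0.68. Each of these values of the 4 genes in the main processing exceeded the spread between probes of a gene, which was 0.18 to 0.20 in these comparisons. The smaller ones were common among named genes. With Nurr1 added to Foxa2, 1966 of 8033 genes were as low as Ccn2 and 992 as Id3. With Nurr1 against Control, 1369 of 7808 were as high as Id1. The -0.68 of Acta2 came from its brightest probe, as neither array detected the other probes. As a mean over probes it was -0.23. For Tgfbr2, Nurr1 against Control gave -0.06 and Nurr1 added to Foxa2 gave 0.13, both within the spread between probes, and this difference was not tested either.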

How the results depend on the processing

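Over 7 alternatives to the main processing, 202 of 294 recomputed log2 differences of members moved by less than the spread between probes, 92 moved by more and no called difference changed sign. With uncorrected background, and likewise with the authors' values, 3 members in place of 6 were called with both factors against Control. At a 1.5-fold threshold, 5 in place of 3 were called with both factors against Foxa2. The other counts of called members stayed within 1.5 times the main ones. The count with Foxa2 against Control was 7 under every alternative. The cause of the moved counts was not tested. Signs changed only for Tgfbr2 values near 0, to 0.01 for Nurr1 against Control with equal medians and to -0.02 for both factors against Foxa2 as a mean over probes. Over the members, 13 calls were lost and 2 gained under these alternatives. Tgfb3, Tgfbr3, Acta2 and Bmp4 did not reach a detection p-value under 0.01 on at least 1 array, so their differences there are bounds or not given. At a detection threshold of 0.05 the bounds of Tgfbr3, Acta2 and Bmp4 became measured differences, while Tgfb3 against Control stayed a bound. No paired analysis was possible because each group has 1 array.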
